A study of Mus musculus with 6 samples.

Results

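Autism risk genes were followed in the cerebellum of mice bred to lose Slc7a5 from brain vessels. The 35 genes were taken by symbol from a list of high-confidence autism genes, with no measured value in the rule, and all 35 were found among the 46983 genes of the count tables and in the authors' deposited table, so no symbol had to be skipped. The list was divided by known role into 10 synaptic and membrane genes, 12 chromatin genes, 5 transcription factor and Mediator genes, and 8 genes of signalling, the cytoskeleton and protein turnover. RNA sequencing gave 6 libraries from cerebellum of C57BL/6J mice at postnatal day 60. The 3 libraries labelled WT were Tie2-Cre Slc7a5 fl/+, with the recombinase and 1 floxed allele, and the 3 labelled Slc7a5-KO were Tie2-Cre Slc7a5 fl/fl. Tie2-Cre is active in endothelial cells and blood lineages, so neurons, where many of the listed genes act, were not its target.

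Slc7a5 encodes LAT1, which carries large neutral amino acids such as leucine across the blood-brain barrier, and the series title names impaired transport there as a cause of autism. Risk genes for autism fall largely into synaptic proteins, which build and hold contacts between neurons, and regulators of chromatin and transcription, which set the expression of many other genes. A smaller set acts in growth signalling and protein degradation, among them the TSC complex, which restrains mTORC1, a kinase complex responsive to amino acids.

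Gene reads per library were 13.4 M to 34.2 M (M as in CPM), with the fewest in Slc7a5-KO replicate 3. The labels do not say whether each library came from its own mouse, so p-values measure the spread between these libraries, part of which may be technical. Slc7a5 itself had no fewer reads under the Slc7a5-KO label, at 72, 66.3 and 43.2 CPM for WT against 164, 59.4 and 118 CPM for the Slc7a5-KO label (log2 0.91 ± 0.421, edgeR adjusted p = 0.844), so the counts did not bear out the labels, and every direction given here follows the labels. A count over the whole gene in whole tissue is a weak check where the deletion is in vessel and blood cells. By Xist and Y-linked genes, 1 WT library and 2 labelled Slc7a5-KO were female and the others male, so each group held at least 2 mice. Cerebellar markers were abundant in all 6 libraries, with a summed level of 3606 to 6120.1 CPM over 7 Purkinje cell markers and 3100.3 to 5478 CPM over 7 granule cell markers. CPM, counts per M reads, were scaled between libraries by TMM, the trimmed mean of M-values.

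None of the 35 autism risk genes passed the test between the groups. At a false discovery rate of 0.05, edgeR's quasi-likelihood test called 0 of 35, with adjusted p of 0.821 to 0.999, against 8 of all 16851 genes tested (0.0475%). At an unadjusted p under 0.05 it gave 0 of 35, where 6.22% of all genes passed, and DESeq2 and limma-voom also called 0. All 35 passed the filter on low counts. In 3 of 35 (8.57%) the groups did not overlap, a share near that of all genes (11.5%). Cntnap2 and Adnp were the 2 genes higher throughout (5.93% of all genes were) and Ctnnb1 the 1 lower throughout (5.54% of all genes). The median log2 fold change was 0.049 over the 35 genes and 0.0022 over all genes tested, with 22 genes above 0 and 13 below, where 50.3% of all genes were above 0. In 29 of 35 the group means differed by less than the larger of their SDs.

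The intervals were narrow for most of these genes. The standard error of the log2 fold change had a median of 0.148 over the 35 and of 0.238 over all genes tested. The listed genes also had more reads, with a median level of 106.9 CPM against 16.41 CPM over all genes tested. Whether this accounts for the narrower intervals was not tested. For 30 of 35 genes the whole 95% confidence interval lay within 1.5-fold either way (log2 0.585), against 6227 of all 16851 genes tested. For 32 of 35 it lay within 2-fold, against 10679 of all 16851. A change of that size was outside the interval in those genes. The exceptions at 1.5-fold were Nlgn3, Ube3a and 3 genes of few reads, Adnp, Tbr1 and Katnal2. Intervals use standard errors worked out from edgeR's fold change and test statistic. They cover single genes, not the list at once.

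**Figure D1:**
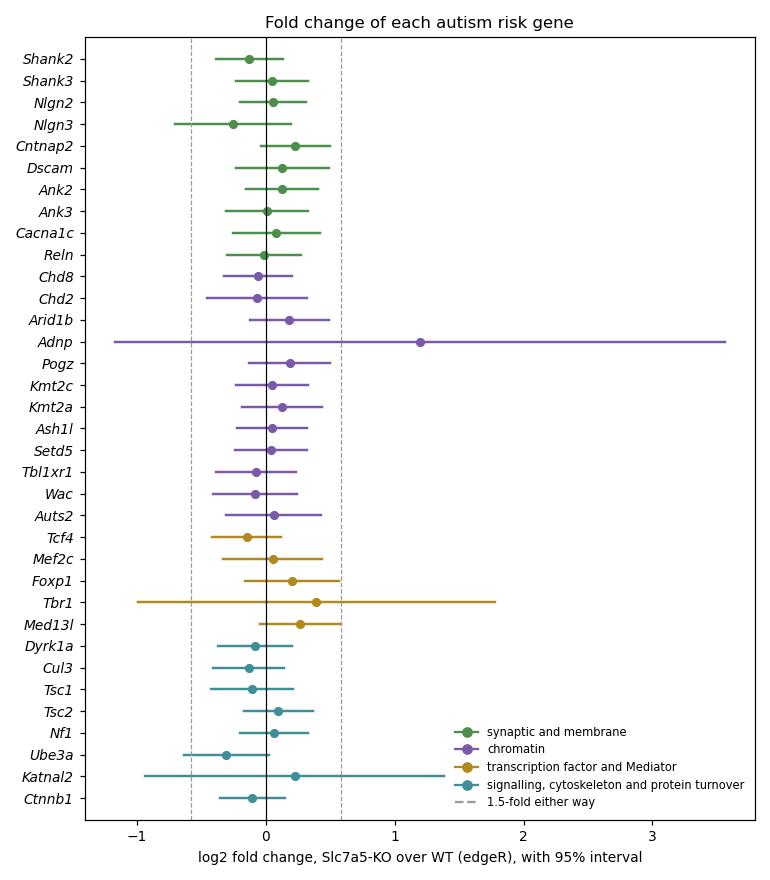
Log2 fold change of each of the 35 genes (points), libraries labelled Slc7a5-KO over WT, with 95% confidence intervals (lines) from edgeR, coloured by role. All intervals hold 0, 30 of 35 lie between the dashed lines at 1.5-fold, and Adnp, Tbr1 and Katnal2 have the widest.

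Levels differed far more between genes than between groups. The 32 genes other than Adnp, Tbr1 and Katnal2 had a mean of at least 20 CPM. The highest library lay above the lowest by a median of 1.42-fold over the 35 genes. Compared between genes as CPM per kilobase of exon (mean ± SD, n = 6), Ctnnb1, which encodes the adhesion and Wnt signalling protein beta-catenin, stood highest at 68.3 ± 3.8. Nlgn2 followed at 31 ± 1.9 and Shank2 at 21.6 ± 1.95. Ank2 (19.3 ± 1.82) and Wac (19.1 ± 3.17) came next, and they and Kmt2a (17.3 ± 2.51), Ank3 (17 ± 2.35), Cul3 (16.6 ± 1.15) and Shank3 (16 ± 1.48) did not differ in order beyond their spread. At the low end, Auts2 had 2.06 ± 0.335 and Foxp1 2.25 ± 0.265 CPM per kilobase. Below these stood only Katnal2 (0.619 ± 0.273), Tbr1 (0.306 ± 0.113) and Adnp (0.136 ± 0.0723). In GENCODE release M21, 82.1% of the exon bases of Adnp are shared with another gene on the same strand, where reads count for neither. With that annotation its value is no measure of its level, and its place in this order cannot be relied on. Shared shares of 41.2% in Nlgn3 and 18.4% in Chd2 would lower their values too. The exon length takes all annotated exons of a gene together, such as 22890 bases for Auts2 and 13751 for Foxp1. It can exceed the length of a single transcript, which lowers the value, so the order also depends on the annotation.

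**Figure D2:**
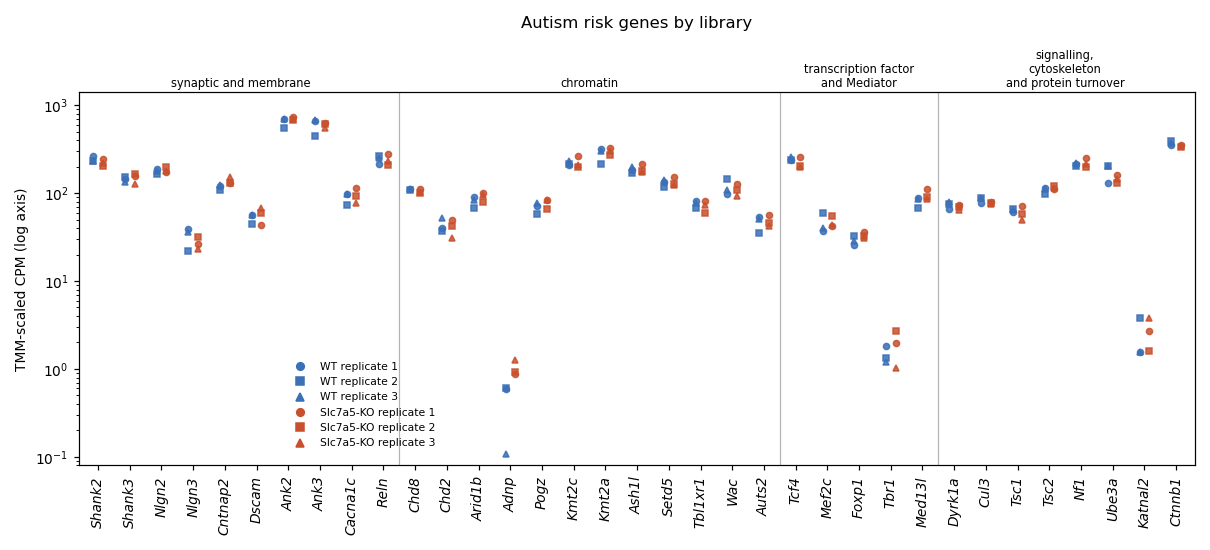
TMM-scaled CPM (log axis) of the 35 genes in each library, WT in blue and Slc7a5-KO in orange, with a marker for each replicate and the genes set out by role. Points of both groups mix for most genes, and Adnp, Tbr1 and Katnal2 lie far below the other 32. The counts of Adnp may rest on a small part of its exons, so its position is no measure of its level.

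The promoters are shown for one feature that bears on this study. Cells short of amino acids induce genes through ATF4, which with C/EBP partners binds the letters TGATGNAA, the amino acid response element, on either strand. In RefSeq promoter windows of GRCm38.p6 (250 bases before to 50 after each start), 26 of the 35 genes had 39 windows, and 3 windows held these letters (7.69%), against 3.97% of all 32851 windows. No other motif was searched. The 3 windows belong to Ank2, which has 4 windows, and Cacna1c, which has 3. They had few CG pairs, 2 and 5 in Ank2 and 7 in Cacna1c. The windows of these genes with the most CG pairs, 21 in Ank2 and 57 in Cacna1c, did not hold the letters. Neither gene passed the test (0.13 ± 0.135 and 0.082 ± 0.161). A match is a description of letters, not a binding site. The bases before the start are printed for 1 window of each gene that held the letters (in capitals, on the opposite strand in Cacna1c), and for Ube3a, the gene with the smallest p, whose window held none.
Ank2 (chr3:127409059-127409308, minus strand): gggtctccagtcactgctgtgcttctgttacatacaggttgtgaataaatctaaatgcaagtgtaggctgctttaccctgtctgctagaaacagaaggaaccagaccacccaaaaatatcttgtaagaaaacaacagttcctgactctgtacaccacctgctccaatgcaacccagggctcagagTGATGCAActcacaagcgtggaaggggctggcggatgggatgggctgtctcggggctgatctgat
Cacna1c (chr6:118757975-118758224, minus strand): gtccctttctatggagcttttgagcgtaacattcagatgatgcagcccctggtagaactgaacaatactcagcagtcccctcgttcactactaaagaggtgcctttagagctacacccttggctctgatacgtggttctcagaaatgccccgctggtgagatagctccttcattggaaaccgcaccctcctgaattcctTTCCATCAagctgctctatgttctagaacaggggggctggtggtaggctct
Ube3a (chr7:59228500-59228749, plus strand): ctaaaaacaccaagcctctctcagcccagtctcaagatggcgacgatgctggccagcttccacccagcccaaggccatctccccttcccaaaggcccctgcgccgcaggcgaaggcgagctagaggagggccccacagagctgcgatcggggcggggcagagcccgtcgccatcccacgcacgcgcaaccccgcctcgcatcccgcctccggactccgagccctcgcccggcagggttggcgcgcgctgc
The Ube3a window had 29 CG pairs in its 300 bases, where the median was 25 in windows of the list and 7 in all windows. Genes with several windows count more than once in that median. Some windows of the list had few CG pairs, such as 1 in Setd5 and 1, 10 and 4 in Mef2c.

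The synaptic and membrane genes had a median log2 fold change of 0.051, with 7 above 0 and 3 below and adjusted p of 0.852 to 0.999. Cntnap2, an adhesion protein of the axon that places potassium channels beside the node, was the only one whose groups did not overlap. The gene (ENSMUSG00000039419.16, GRCm38 chromosome 6, 45059357 to 47304213, plus strand) stood at 120.3, 109.7 and 122 CPM for WT against 131, 129.6 and 152 CPM for the Slc7a5-KO label. All 3 libraries labelled Slc7a5-KO were above all 3 WT libraries, but by little, and it did not pass (log2 0.23 ± 0.128, 95% interval -0.039 to 0.50, edgeR adjusted p = 0.852). Leaving out any 1 library gave values of 0.15 to 0.27.

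Shank2 and Shank3 are scaffolds under the excitatory synapse. Shank2, abundant in Purkinje cells, was at 264, 234 and 232 CPM for WT against 245, 203 and 219 CPM for the Slc7a5-KO label (log2 -0.13 ± 0.125, edgeR adjusted p = 0.953). Shank3 was at 146, 153 and 135 CPM for WT against 158, 163 and 128 CPM for the Slc7a5-KO label (log2 0.048 ± 0.132, edgeR adjusted p = 0.99). The groups overlapped for both, and neither passed. The 95% intervals were -0.39 to 0.13 for Shank2 and -0.23 to 0.32 for Shank3.

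Neuroligins are postsynaptic partners of neurexins, Nlgn2 at inhibitory synapses. Nlgn2 was among the steadiest of the genes, at 186, 166 and 177 CPM for WT against 173, 197 and 178 CPM for the Slc7a5-KO label (log2 0.055 ± 0.122). Nlgn3, on chromosome X, was at 39.1, 21.7 and 36.1 CPM for WT against 26.2, 31.9 and 22.9 CPM for the Slc7a5-KO label (log2 -0.26 ± 0.215, 95% interval -0.71 to 0.20, edgeR adjusted p = 0.937). It was lowest in WT replicate 2 and highest in WT replicate 1, so the WT libraries spanned all of the others. In GENCODE release M21, 41.2% of the exon bases of Nlgn3 are shared with Gm21986 on the same strand. STAR assigns reads in shared bases to neither gene, so with that annotation the Nlgn3 count covers part of its transcript. Gm21986, chosen after its values were seen, had 33, 40 and 30 reads in WT and 8, 7 and 9 in the libraries labelled Slc7a5-KO, and did not pass (log2 -1.59 ± 1.08, edgeR adjusted p = 0.895).

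Ank2 and Ank3 encode ankyrins, which tie membrane proteins to the cytoskeleton, Ank3 at the axon initial segment. Ank2 was at 698, 552 and 686 CPM for WT against 739, 681 and 692 CPM for the Slc7a5-KO label (log2 0.13 ± 0.135). Ank3 was at 652, 446 and 668 CPM for WT against 618, 610.5 and 551 CPM for the Slc7a5-KO label (log2 0.010 ± 0.152). Both were lowest in WT replicate 2. Without that library the log2 value of Ank3 was -0.15 and that of Ank2 0.028.

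Cacna1c, the pore subunit of an L-type calcium channel, was at 98.5, 72.6 and 98.4 CPM for WT against 115, 91.9 and 77.6 CPM for the Slc7a5-KO label (log2 0.082 ± 0.161). Dscam, a cell adhesion protein of neurites, was at 55.9, 44.1 and 55.6 CPM for WT against 43, 59.6 and 67.9 CPM for the Slc7a5-KO label (log2 0.13 ± 0.173). Reln, the secreted guidance protein that granule cells make, was at 212, 262 and 254 CPM for WT against 279.6, 210.2 and 229.5 CPM for the Slc7a5-KO label (log2 -0.015 ± 0.136). In each of the 3 the groups overlapped, and the lowest and the highest libraries of Cacna1c and Reln stood within 1.59-fold and 1.33-fold.

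The chromatin genes had a median log2 fold change of 0.048, with 8 of 12 above 0, and adjusted p of 0.931 to 0.99. Chd8, a chromatin remodeller and one of the most often mutated autism genes, was among the steadiest, at 109.8, 107 and 111 CPM for WT against 112, 99.3 and 102 CPM for the Slc7a5-KO label (log2 -0.061 ± 0.126, 95% interval -0.32 to 0.20). Its highest library lay 1.13-fold above its lowest. Chd2, a related remodeller, was at 40.4, 37.2 and 51.5 CPM for WT against 48.8, 42.7 and 31.1 CPM for the Slc7a5-KO label (log2 -0.071 ± 0.185). It shares 18.4% of its exon bases with 1810026B05Rik on the same strand, so its count would be partial as well.

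The histone methyltransferases were close to 0. Kmt2a was at 317, 212 and 298 CPM for WT against 328, 274 and 299.7 CPM for the Slc7a5-KO label (log2 0.12 ± 0.148) and Kmt2c at 206, 216 and 229.9 CPM for WT against 266, 199 and 209.7 CPM for the Slc7a5-KO label (log2 0.049 ± 0.132). Ash1l, which methylates histone H3, had 0.047 ± 0.13, and Setd5, which carries a SET domain, had 0.042 ± 0.134 on the log2 scale. Kmt2a was lowest in WT replicate 2, and without that library its log2 value was -0.033.

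Arid1b, a subunit of the BAF remodelling complex, was at 90, 67.6 and 82.3 CPM for WT against 99.3, 78.3 and 94.8 CPM for the Slc7a5-KO label (log2 0.18 ± 0.147, edgeR adjusted p = 0.931). Pogz, a heterochromatin-associated zinc finger protein, was at 70.9, 57.1 and 77 CPM for WT against 82.9, 66.3 and 83.7 CPM for the Slc7a5-KO label (log2 0.18 ± 0.151, edgeR adjusted p = 0.934). Both had group means higher in the libraries labelled Slc7a5-KO, with overlap, and neither passed. Tbl1xr1, of the NCoR corepressor complex, had -0.074 ± 0.149, Wac, an adaptor in histone ubiquitination, -0.085 ± 0.156, and Auts2, a Polycomb-associated protein, 0.060 ± 0.176.

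Adnp, a neuroprotective homeobox and zinc finger protein, was listed at only 21, 17 and 3 reads in WT and 28, 25 and 17 reads in the libraries labelled Slc7a5-KO (0.593, 0.614 and 0.109 CPM for WT against 0.867, 0.934 and 1.25 CPM for the Slc7a5-KO label). The groups did not overlap, yet the interval was the widest of the 35 (log2 1.20 ± 1.13, 95% interval -1.17 to 3.56, edgeR adjusted p = 0.951). In GENCODE release M21, 82.1% of the exon bases of Adnp are shared with Gm20716, a gene on the same strand, and Gm20716 is in the count tables with 0 reads in every library. With that annotation the counts rest on a small part of Adnp and are no measure of its level. Without Adnp the median of the chromatin genes was 0.047.

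The transcription factor and Mediator genes had the highest median of the 4 groups, 0.204, over only 5 genes, with adjusted p of 0.852 to 0.991. Without Slc7a5-KO replicate 2 it was 0.058, without WT replicate 1 it was 0.12, and over all 6 such removals it reached at most 0.29. Med13l, of the Mediator kinase module (ENSMUSG00000018076.12, GRCm38 chromosome 5, 118560679 to 118765438, plus strand), was at 86.8, 66.7 and 85.6 CPM for WT against 112, 90.6 and 85 CPM for the Slc7a5-KO label (log2 0.27 ± 0.15, 95% interval -0.045 to 0.58, edgeR adjusted p = 0.852). Its highest value was in Slc7a5-KO replicate 1, replicate 2 also lay above all WT libraries, and replicate 3 lay inside the WT range. Foxp1 was at 25.4, 32.4 and 28.7 CPM for WT against 36.1, 32.6 and 30.9 CPM for the Slc7a5-KO label (log2 0.20 ± 0.173), with overlap between the groups.

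Tcf4, a basic helix-loop-helix factor, went the other way, at 236, 237 and 258 CPM for WT against 254, 205 and 199 CPM for the Slc7a5-KO label (log2 -0.15 ± 0.128, edgeR adjusted p = 0.94), and did not pass. Mef2c, a factor of activity-dependent transcription, was at 36.6, 58.8 and 40.4 CPM for WT against 42.1, 54.9 and 43.7 CPM for the Slc7a5-KO label (log2 0.052 ± 0.183), high in WT replicate 2 and Slc7a5-KO replicate 2. Tbr1, best known from deep-layer neurons of the cerebral cortex, had 65, 37 and 33 reads in WT and 64, 72 and 14 reads in the libraries labelled Slc7a5-KO. Its 95% interval of -0.99 to 1.78 on the log2 scale includes a 2-fold rise. Of the forebrain markers, Emx1 did not pass the filter and reached at most 0.537 CPM, and Neurod6 lay between 10.7 and 21.1 CPM.

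The genes of signalling, the cytoskeleton and protein turnover had a median of -0.095, with 3 above 0 and 5 below. Ube3a, a ubiquitin ligase lost in Angelman syndrome, had the smallest p of the 35. It stood at 130.5, 204 and 202 CPM for WT against 158, 131 and 144 CPM for the Slc7a5-KO label. WT replicate 1 was just below the lowest library labelled Slc7a5-KO, and the other 2 WT libraries were above all 3 of these. The log2 fold change was -0.31 ± 0.157 (95% interval -0.64 to 0.022, edgeR adjusted p = 0.821), and leaving out any 1 library gave -0.49 to -0.20. Without WT replicate 1 it was -0.49 with an edgeR adjusted p of 0.457. With an offset for exon length and GC content it was -0.15.

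Neurons transcribe a long antisense RNA over Ube3a that silences its paternal copy, and the strand-specific counts show reads of both strands. On GRCm38 Ube3a lies on the plus strand of chromosome 7 (59228750 to 59311536), and 27.3% of its exon bases are covered by exons of opposite-strand genes, Snhg14 among them. Opposite-strand reads made up 16.1% to 21.6% of the reads at Ube3a, against 0 to 0.795% in 31 of the 35 genes. Their levels, 30.8, 45.2 and 38.9 CPM for WT against 31.2, 36.1 and 29.0 CPM for the Slc7a5-KO label, overlapped. Snhg14, the host gene of that antisense RNA, was at 160.5, 191 and 178 CPM for WT against 188, 142 and 175 CPM for the Slc7a5-KO label (log2 -0.070 ± 0.134, edgeR adjusted p = 0.985). With counts of both strands together, from which reads in bases shared with antisense genes drop out, Ube3a had -0.41 (edgeR adjusted p = 0.748).

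Tsc1 and Tsc2 form the complex that restrains mTORC1 through Rheb. Tsc1 was at 60.3, 66.5 and 64.8 CPM for WT against 70.7, 57.6 and 49.2 CPM for the Slc7a5-KO label (log2 -0.11 ± 0.153). Tsc2 was at 115, 98.1 and 112 CPM for WT against 112, 122 and 114 CPM for the Slc7a5-KO label (log2 0.10 ± 0.128). The groups overlapped for both. Tsc2 overlaps the end of Pkd1 on the opposite strand, and opposite-strand reads made up 17.0% to 20.8% of the reads there, which the strand-specific counts leave out.

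Ctnnb1 was the third gene whose groups did not overlap. The gene (ENSMUSG00000006932.16, GRCm38 chromosome 9, 120929216 to 120960507, plus strand) was at 349, 389 and 366 CPM for WT against 347, 332 and 346 CPM for the Slc7a5-KO label, a narrow gap between the lowest WT library and the highest of the others, and it did not pass (log2 -0.11 ± 0.121, 95% interval -0.36 to 0.15, edgeR adjusted p = 0.964). Cul3, the scaffold of a ubiquitin ligase, was at 77.9, 87.2 and 88 CPM for WT against 79.4, 76.7 and 74.7 CPM for the Slc7a5-KO label (log2 -0.13 ± 0.131). Dyrk1a, a kinase of the Down syndrome region, had -0.085 ± 0.137 and Nf1, a brake on Ras, 0.062 ± 0.125 on the log2 scale. Katnal2, related to the microtubule-severing protein katanin, was low, at 1.55, 3.83 and 1.56 CPM for WT against 2.72, 1.61 and 3.82 CPM for the Slc7a5-KO label (log2 0.22 ± 0.554).

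**Figure D3:**
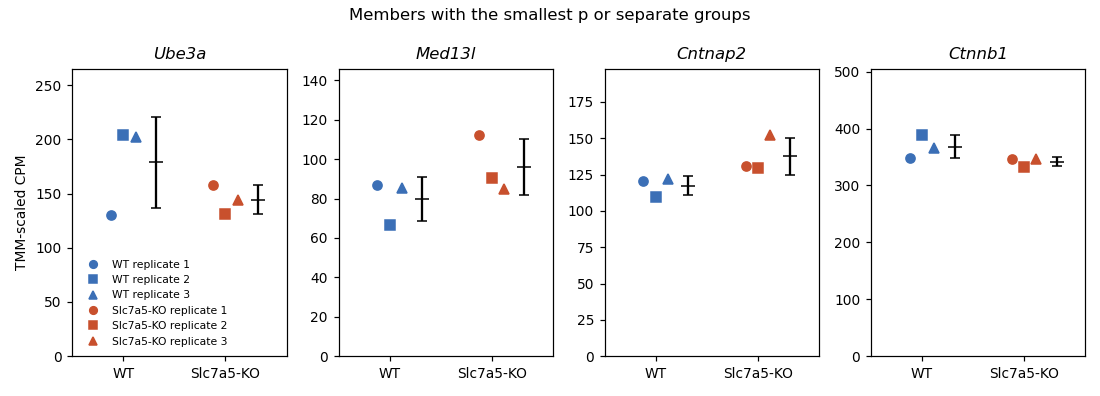
TMM-scaled CPM of Ube3a, Med13l, Cntnap2 and Ctnnb1 in each library (symbols), with mean ± SD of each group (black, n = 3). The groups are apart in Cntnap2 and Ctnnb1, by little, and WT replicate 1 lies with the libraries labelled Slc7a5-KO in Ube3a.

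Synaptic and chromatin genes were compared directly. The medians of their log2 fold changes differed by 0.0031, synaptic minus chromatin, and by -0.059 to 0.055 with any 1 library removed. With a sex term the synaptic median was 0.12, the chromatin median 0.057 and their difference 0.064. With 1 library removed the synaptic median ran from -0.0065, without Slc7a5-KO replicate 1, to 0.094, without WT replicate 1. The chromatin median ran from -0.061, without Slc7a5-KO replicate 1, to 0.10, without WT replicate 3. A score was made for each library, by subtracting a gene's 6-library mean from its log2 CPM and averaging over the genes of a group. It was 0.079, -0.18 and 0.059 in WT replicates 1 to 3 and 0.049, 0.032 and -0.036 in the libraries labelled Slc7a5-KO for the synaptic genes. For the chromatin genes without Adnp it was 0.026, -0.16 and 0.079 in WT replicates 1 to 3 and 0.20, -0.092 and -0.059 in the libraries labelled Slc7a5-KO. The synaptic score minus this chromatin score was 0.0030 ± 0.0437 in WT and -0.0030 ± 0.141 in the libraries labelled Slc7a5-KO (SD, n = 3), so the difference between groups was smaller than the spread within them. With Adnp included the same score was 0.056 ± 0.0917 and -0.056 ± 0.123, with overlap as well.

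**Figure D4:**
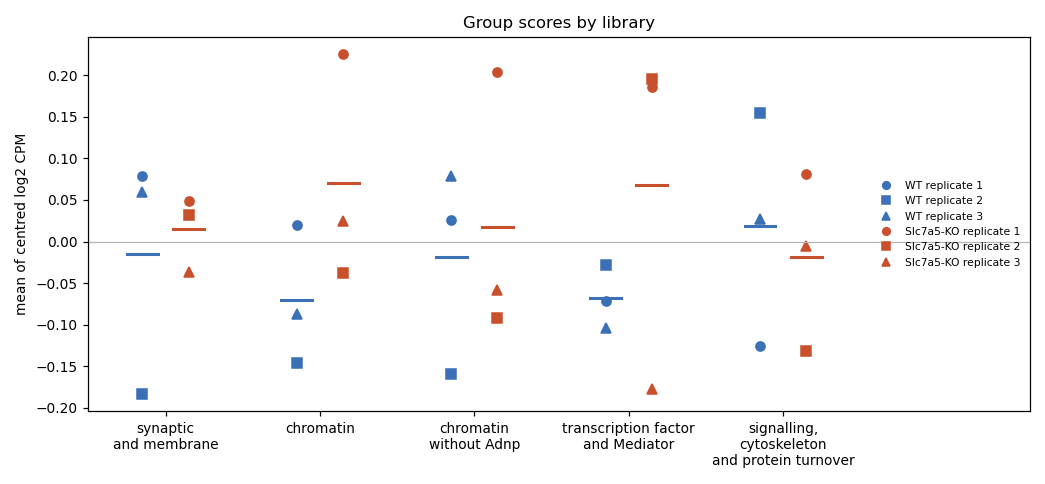
Mean of centred log2 CPM over each group of genes in each library (symbols), with the mean of 3 libraries as a bar. WT replicate 2 is the lowest library for the synaptic genes (-0.18) and for the chromatin genes with or without Adnp, and Slc7a5-KO replicate 1 the highest for the chromatin genes.

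Single libraries stood at the edge of the range in many of these genes. WT replicate 2 was the lowest library in 14 of the 35 genes, 12 of them synaptic or chromatin, against 23.4% of all genes tested. Slc7a5-KO replicate 1 was the highest in 15 of 35, against 14.9% of all genes. WT replicate 2 also had the lowest summed level of 5 oligodendrocyte markers (3329 CPM, against 4726 and 5219.6 in the other WT libraries and 3628 to 6231 under the Slc7a5-KO label). It had the highest sum of 7 granule cell markers (5478 CPM, against 3691 and 4142 in the other WT libraries), and it was the only female library of its group. No marker of either list was at 0 in any library. Their part in the levels of the autism genes was not tested, and in whole tissue fewer cells of a type and less RNA per cell cannot be told apart.

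Other marker sums also moved with libraries or labels, and their part in the values of the autism genes was not tested. Purkinje cell markers summed to 5190.4 to 6120.1 CPM in WT, against 3606 to 5438 CPM under the other label, with overlap. Unipolar brush cell markers summed to 254 to 303 CPM and 429.9 to 856 CPM, without overlap, and most of that sum was Calb2. The other 2 markers of that list had values below 0 and did not pass, Lmx1a with -1.58 ± 0.603 (edgeR adjusted p = 0.698) and Eomes with -0.21 ± 0.279 on the log2 scale (edgeR adjusted p = 0.968). Calb2, the calcium-binding protein calretinin, was at 237, 292 and 262 CPM for WT against 845, 421 and 552 CPM for the Slc7a5-KO label and did not pass (log2 1.20 ± 0.205, edgeR adjusted p = 0.0678). Rgs8, a Purkinje cell regulator of G-protein signalling, was at 832, 892 and 1012 CPM for WT against 656, 622 and 567 CPM for the Slc7a5-KO label (log2 -0.57 ± 0.134, edgeR adjusted p = 0.222). Choroid plexus markers summed to 28 CPM in 1 library, Slc7a5-KO replicate 2, against 2304 to 5560.2 CPM elsewhere. Without that library, as with all, 0 of the 35 autism genes were called.

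Other genes of the same kinds gave the same count. Of 37 further autism genes, 0 were called, where 0.0475% of all genes were, with 25 above 0, 12 below and a median of 0.067. An unadjusted edgeR p under 0.05 was found in 4, where 6.22% of all genes had one. The groups did not overlap in 13.5% of these genes, against 11.5% of all genes. Syn1, a protein of synaptic vesicles, had the smallest p and did not pass, at 195, 187 and 205 CPM for WT against 219.5, 274 and 279 CPM for the Slc7a5-KO label (log2 0.39 ± 0.128, edgeR adjusted p = 0.588). The 15 further synaptic and channel genes had a median of 0.089 and the 16 further chromatin genes 0.015.

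Of 33 partners of the listed proteins, 0 were called, where 0.0475% of all genes were, so this count says little about the partners. They had 23 values above 0, 10 below and a median of 0.044. An unadjusted edgeR p under 0.05 was found in 3, where 6.22% of all genes had one. The groups did not overlap in 9.09% of the partners, against 11.5% of all genes. Homer3, which links SHANK scaffolds to metabotropic glutamate receptors and is a Purkinje cell gene, had the smallest p, at 149, 158 and 135 CPM for WT against 124, 99.2 and 95.5 CPM for the Slc7a5-KO label (log2 -0.47 ± 0.137, edgeR adjusted p = 0.471). Homer3 was lower in all 3 libraries labelled Slc7a5-KO than in any WT library, as were 5.54% of all genes. Sptbn4, a spectrin that binds ankyrin at the axon initial segment, was next (log2 0.38 ± 0.156, edgeR adjusted p = 0.754). In the reelin pathway Lrp8, Vldlr and Dab1 ran from -0.12 to 0.062, and Rheb, Mtor, Rptor and Tbc1d7, of the TSC and mTORC1 arm, from -0.15 to 0.24. The 4 BAF subunits ran from 0.039 to 0.16 and the 7 SHANK scaffold partners from -0.47 to 0.38.

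Long genes are common in the list. The 35 genes spanned a median of 125.5 kb, against 21.3 kb for all genes tested, and Cntnap2 (2245 kb) and Auts2 (1106 kb) were the longest. Of the 35, 19 spanned over 100 kb, with a median log2 fold change of 0.052, and all 2351 tested genes of that span had a median of 0.016. GC content of the longest transcript had a median of 49.4% in the list and of 49.5% over all genes tested.

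DESeq2 results for these groups stand in the authors' deposited table. None of the 34 listed genes that have an adjusted p in the authors' deposited table was under 0.05 (0.433 to 0.994), against 0.9% of all genes with one, and Adnp had no adjusted p. The unshrunken log2 fold changes of the authors' deposited table had the sign of those from edgeR in all 35 genes and differed from them by at most 0.0067. Ube3a had the smallest p in the authors' deposited table too, 0.046 before and 0.433 after adjustment, with a log2 value of -0.31.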

How the data were processed

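RNA sequencing covered 3 WT and 3 Slc7a5-KO libraries of cerebellum. Per the labels' protocols, libraries were made from total RNA with a strand-keeping SENSE mRNA-Seq V2 kit. The authors deposited read counts per gene, not normalised, over both strands and over each one. Per the submitters' processing notes, STAR 2.5.4 and GRCm38 (mm10) were used; no source used here gives the annotation release. PCR copies may be among the reads, as the labels' protocols mention no molecular identifiers. The reverse-strand count (column 4) was used, with 94.8% to 95.8% of stranded reads. Reads in no gene or in several genes (19.5% to 22.2%) stayed out. A second deposited table holds the authors' comparison (DESeq2 1.10.1, R 3.2.4): per the file headers, a mean normalised signal, log2 fold changes, standard errors with a Wald score, and p-values.

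Symbols, coordinates and exon overlaps come from GENCODE M21 on GRCm38, with 46488 of 46983 identifiers matched. Genes were filtered with filterByExpr (minimum count 10, total 15), scaled by TMM and compared by the robust quasi-likelihood test of edgeR 4.0.16 in R 4.3.3 (2-sided), with Benjamini-Hochberg adjustment over all 16851 genes. Values after ± are SD for CPM (n = 3 unless given) and standard errors for log2 fold changes. These standard errors were worked out from the fold change and F statistic of the edgeR test, and the intervals from them with t quantiles. Log2 CPM used a prior count of 2. The biological coefficient of variation was 31.6%.

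Named genes were all listed genes, Slc7a5, and from each further list up to 5 called genes or else the 2 with the smallest p, of which 1 is not reported here; others are said to be chosen after their values were seen, or are named as genes overlapping a listed one, as members of a pathway list or as cell type markers given beside a result. The members and lists were chosen with earlier results of these data known. Alternatives were DESeq2 size factors, upper-quartile scaling, no filter, DESeq2 1.42.0, limma-voom 3.58.1, unstranded counts, a replicate block, a sex term, an offset for exon length and GC content (loess, span 0.3), and leaving out each library.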

Additional observations from a re-analysis of the deposited data

How the results depend on the processing

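No autism gene was called under any of the 9 alternatives to the scaling, filter, test, counts or model, or without any 1 library. The count over all genes was 8, and it was 71 with no filter on low counts, 46 by DESeq2, 16 with a sex term and 3 to 20 with any 1 library removed, highest without Slc7a5-KO replicate 1 or 2 and lowest without WT replicate 3. Scaling by DESeq2 size factors or upper quartiles, no filter, DESeq2, limma-voom, unstranded counts and the replicate block changed no sign among the 35. With the replicate block, 6 genes in all and 0 autism genes were called. Same-numbered libraries did not deviate together (correlations of -0.038, -0.059 and -0.027). No pairing by number was visible, though such correlations cannot show that there was none. Signs of 2 genes changed with a sex term (Chd2 0.0013, Katnal2 -0.095) and of 9 with the offset for exon length and GC content (Shank3 -0.12, Nlgn2 -0.047, Ank3 -0.027, Setd5 -0.016, Tbl1xr1 0.012, Wac 0.032, Auts2 -0.044, Cul3 0.061, Tsc2 -0.0021). The cause was not tested. These are values near 0, none of them called. With the offset the synaptic median was -0.037 and the chromatin median 0.022. The median of all 35 genes, 0.049, lay between -0.060 and 0.094 with any 1 library removed, and was lowest without Slc7a5-KO replicate 1. Leaving out 1 library changed the sign of 18 genes, whose log2 values then ran as follows: Shank3 -0.022 to 0.15, Nlgn2 -0.0064 to 0.10, Dscam -0.015 to 0.30, Ank3 -0.15 to 0.11, Cacna1c -0.082 to 0.21, Reln -0.14 to 0.068, Chd2 -0.22 to 0.090, Kmt2c -0.091 to 0.13, Kmt2a -0.033 to 0.24, Ash1l -0.060 to 0.11, Setd5 -0.061 to 0.094, Tbl1xr1 -0.18 to 0.043, Wac -0.20 to 0.10, Auts2 -0.10 to 0.18, Mef2c -0.081 to 0.29, Tsc1 -0.26 to 0.0096, Nf1 -0.042 to 0.13, Katnal2 -0.087 to 0.80. Adnp, Tbr1 and Katnal2 had at most 106 reads in a library and the widest intervals.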
